A study of Mus musculus with 10 samples.

Results

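Integrins, kindlins and the core genes of focal adhesions are the genes by which a cell grips the matrix around it, and 36 of them were followed here in lymphatic endothelial cells (LECs) sorted from the meninges. They were chosen by name, as rows of the deposited count table whose gene symbol is one of 18 integrin alpha chains, 8 integrin beta chains, 3 kindlins, 2 talins and 5 other focal adhesion genes, and all 36 were found among the 55401 genes of the table. The 10 RNA-seq samples came from female wild-type mice that were 3 months old, of strain C57BL/6 by the labels and C57BL/6J by the study's methods. By those methods, the mice of both groups were perfused through the heart with ice-cold PBS (buffered saline) under anesthesia before the meninges were taken. In 5 of them the mice were naive and in 5 they had gone through sub-chronic variable stress (SCVS), a 6-day series of 3 alternating stressors. Each sample pooled the cells of 3 to 4 meninges, which were gated as negative for the leukocyte antigen CD45 and positive for CD31 and podoplanin, so a value is the average of a pool and no single animal was measured. The comparison asks how SCVS changed the transcriptome of these cells.

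An integrin is a pair of an alpha and a beta chain that spans the membrane. Outside, the pair holds collagen, laminin, fibronectin or a protein of another cell, and inside, talin and a kindlin bind the tail of the beta chain and switch the pair to its gripping state, after which vinculin, paxillin, zyxin, focal adhesion kinase and integrin-linked kinase gather there and couple it to actin. In lymphatic vessels, integrins with the beta chain Itgb1 are known to carry the pull of interstitial fluid to the growth receptor Flt4, and the alpha chain Itga9 is needed for the valves of collecting vessels.

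The deposited values are raw read counts. Totals ran from 10421467 to 13975282 counts in the naive and from 9984743 to 14094155 in the SCVS replicates, and did not differ beyond their spread (exact permutation test, two-sided, p = 0.603). Levels are given as CPM (counts per 1000000 counts of the replicate), and a gene is called detected where it has more than 3 counts, which is 0.213 to 0.30 CPM at these depths. This floor covers counting error only, because the amplified reads are not independent molecules. Fewer cells that express a gene and less of its RNA in each cell cannot be told apart in such pools.

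The label of the cells was checked against marker genes, and 2 naive replicates stood apart. The summed level of 7 lymphatic endothelial markers (Prox1, Lyve1, Flt4, Pdpn, Mmrn1, Ccl21a and Reln) was 60.8, 2747, 1019, 1180.2 and 185 CPM across naive replicates 1 to 5, against 1378, 1123, 3074, 3051 and 439 CPM across SCVS replicates 1 to 5. It was lowest in naive replicate 1, where 4 of the 7 were detected and Prox1 and Pdpn, the gene of the sorted antigen podoplanin, had no read. The summed level of 6 markers of all endothelium (Pecam1, Cdh5, Kdr, Tek, Tie1 and Erg) was 3325, 2415, 3594, 2675 and 177 CPM across naive replicates 1 to 5, against 3662, 4101, 2206, 2248 and 1864 CPM across SCVS replicates 1 to 5. It was lowest in naive replicate 5, where Pecam1, the gene of the sorted antigen CD31, stood at 21.5 CPM against 536 CPM or more in each other replicate. Naive replicate 1 thus had endothelial but hardly any lymphatic markers, naive replicate 5 had little of either, and the other 8 replicates held both, with the lowest lymphatic sum among them in SCVS replicate 5. Prox1 by itself did not follow the sum, as it stood at 63.2 CPM in naive replicate 5 and had 2 counts in SCVS replicate 5. Ptprc, the gene of CD45, was at 1.92, 8.54 and 40.5 CPM in SCVS replicates 1, 4 and 5, and no other replicate passed 3 counts of it. For these reasons, fold changes are also given without naive replicates 1 and 5, an alternative chosen after seeing the data.

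**Figure D1:**
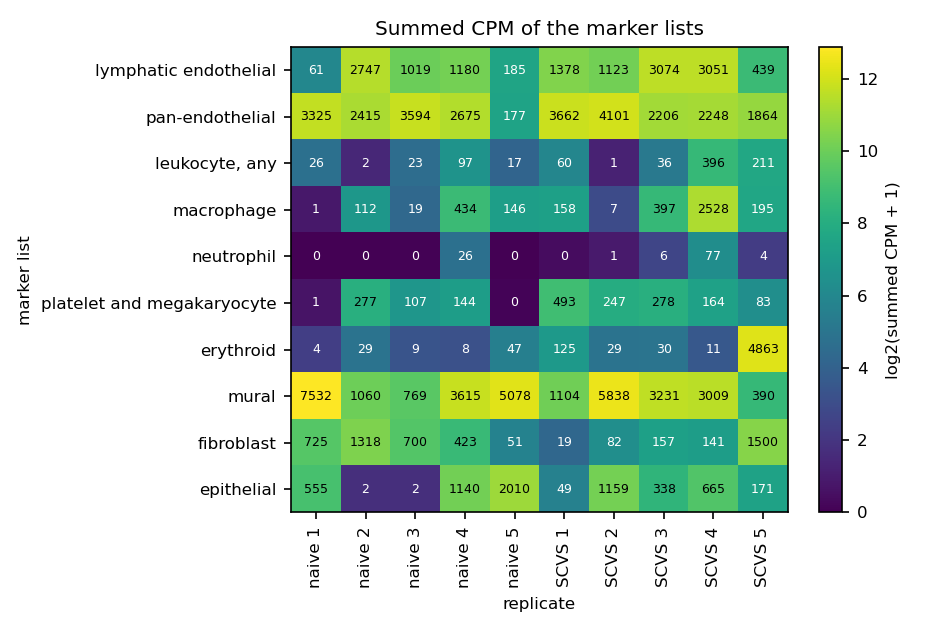
Summed CPM of 10 marker lists (rows) in each replicate (columns), with the sum printed in each cell and the colour on a log2(summed CPM + 1) scale. The lymphatic endothelial sum was lowest in naive replicate 1 and the pan-endothelial sum in naive replicate 5.

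Markers of other cells were present in all 10 replicates. The most abundant gene of the mural list (Pdgfrb, Rgs5, Acta2, Tagln, Myh11 and Des) was Rgs5, and the sum of the list ran from 389.8 CPM in SCVS replicate 5 to 7532 CPM in naive replicate 1. Dcn led the fibroblast list (Col1a1, Col1a2, Pdgfra, Dcn and Lum), which summed to 725, 1318, 700.5, 423 and 50.9 CPM across naive replicates 1 to 5, against 18.5, 82.5, 157, 141 and 1499.7 CPM across SCVS replicates 1 to 5. Naive replicates 1 to 4 were above SCVS replicates 1 to 4, and SCVS replicate 5 was above all. The estimate was below 0 for 4 of the 5 fibroblast genes, with the smallest edgeR p for Col1a2 (0.0163, adjusted 0.975, and 0.253 to 1.00 over the alternatives), and for all 5 tested mural genes, of which Acta2 had an adjusted p of 0.964 in edgeR and 0.060 in DESeq2 (0.060 to 1.00 over the alternatives). Hba-a1 led the erythroid list (Hbb-bs, Hbb-bt, Hba-a1, Hba-a2 and Alas2), which reached 4863 CPM in SCVS replicate 5 and at most 125 CPM elsewhere. C1qb led the macrophage list (Csf1r, Cd68, Adgre1, Mrc1, C1qa, C1qb and Tyrobp), with 2528 CPM in SCVS replicate 4 and at most 434 CPM elsewhere. The estimate was above 0 for all 5 erythroid genes (3 of them, Hbb-bs, Hba-a1 and Hba-a2, at an unadjusted p under 0.05), all 7 macrophage genes (none at that p), all 6 tested general leukocyte genes (1 at that p, Ptprc) and all 4 tested platelet genes (none), and none of these passed an adjusted p of 0.1 in edgeR. Over all genes tested, 48.2% had an estimate above 0, and 1.93% were higher in SCVS mice at an unadjusted edgeR p under 0.05. Ptprc passed the count filter through SCVS replicates only, and Hbb-bs and Hba-a2 would have failed it without SCVS replicates. SCVS replicate 5 held 99.0% of the CPM summed over the 10 replicates for Hbb-bs, 91.2% for Hba-a1 and 98.1% for Hba-a2, and DESeq2 gave none of these 3 genes a p. So red cell, macrophage and fibroblast sums were each highest in 1 SCVS replicate, fibroblast sums were otherwise higher in 4 of the naive replicates, and of the mural genes Rgs5 was abundant in both groups, while the other 5 had means of 0.116 to 27.2 CPM after SCVS against 6.00 to 423 CPM in naive mice. Single libraries carried these naive means. Of the CPM summed over the 10 replicates, naive replicate 1 held 67.8% for Acta2, 73.3% for Tagln and 55.5% for Pdgfrb. Naive replicate 2 held 71.0% for Myh11 and 68.9% for Des. Acta2 stood at 47.9, 14.8 and 20.7 CPM in naive replicates 3, 4 and 5, within the SCVS range of 1.59 to 84.7 CPM.

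Of the 36 genes, 14 were detected in naive replicate 5 and 20 to 26 in each of the other 9 replicates. Their summed level was 1562, 1750.1, 2192, 1724 and 674 CPM across naive replicates 1 to 5, against 2027, 2139, 1626, 1531 and 1246 CPM across SCVS replicates 1 to 5. Naive replicate 5 was the lowest here too, and the groups overlap. Between replicates of the same group many genes switched from absent to abundant: 8 of the 27 genes that passed the count filter (more than 5 counts in at least 3 replicates) had 0 counts in 1 naive replicate and at least 100 in another (29.6%, against 34.8% of all 14815 genes that passed it), and 8 did so among the SCVS replicates (29.6% against 32.5%). Only 9 were detected in all 10 replicates (33.3% against 38.1%), namely Itga1, Itga3, Itga6, Itgb1, Fermt2, Tln1, Ptk2, Pxn and Ilk.

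**Figure D2:**
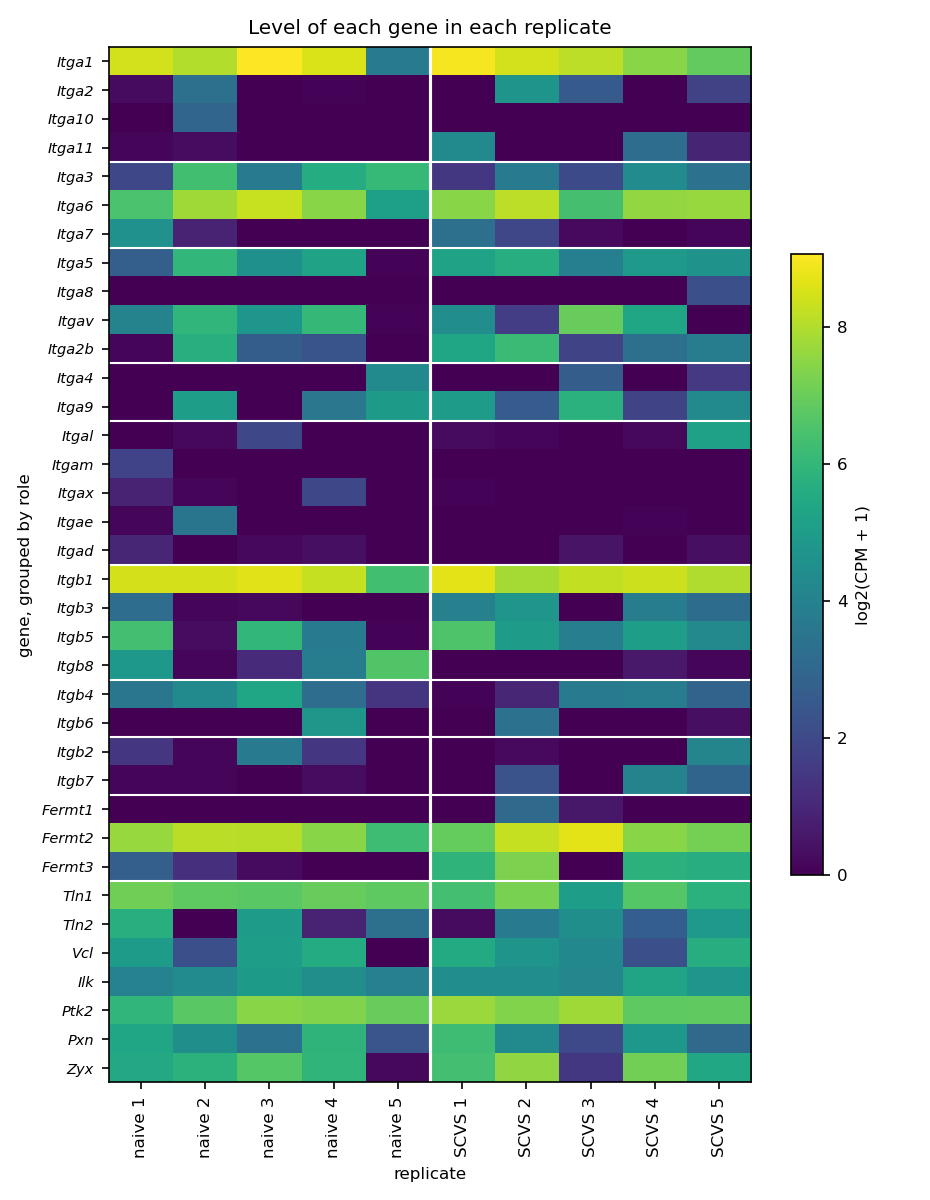
Level of the 36 genes (rows, grouped by role, white lines between groups) in each of the 10 replicates (columns, naive left of the white line and SCVS right of it), coloured by log2(CPM + 1). Itga1, Itga6, Itgb1, Fermt2, Tln1 and Ptk2 form bright rows in nearly every replicate, naive replicate 5 is dim for most of them, and Fermt3 is bright in SCVS replicates 1, 2, 4 and 5.

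None of the 27 genes tested passed an adjusted p of 0.1 in edgeR's quasi-likelihood test, nor did any gene of the table (0% of 14815); adjusted p lay between 0.964 for Itgb8 and 1.00. DESeq2 gave no p to 3 of the 27 (Itga4, Itga7 and Itgb2). Among the others it put 1, Itgb8, under an adjusted p of 0.1, beside 0.814% of the genes to which it gave a p, and limma with voom put none there. At an unadjusted p under 0.05, edgeR had 3 genes higher in SCVS mice (Fermt3, Itgb7 and Itga11), against 1.93% of all genes tested. Of these, Itgb7 and Itga11 passed the count filter through SCVS replicates only, and Fermt3 would have failed it without SCVS replicates. At the same p, edgeR had 1 gene lower (Itgb8, which passed the filter through naive replicates), against 1.17%. DESeq2 had 5 in all (against 4.72% of its genes) and voom 3 (against 5.22%). For none of the 36 did the 5 naive and the 5 SCVS replicates separate without overlap, against 0.445% of genes tested that separated with SCVS higher and 0.182% with SCVS lower. The estimate was above 0 for 17 of the 27 and below 0 for 10, with a median log2 fold change of 0.18, against −0.0295 over all genes tested.

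Per kilobase of exon, the beta chain Itgb1, the shared partner of most matrix-binding alpha chains, was the most abundant of the 36, at a mean of 74.1 CPM per kilobase over the 10 replicates. Its level was 358, 351, 406, 307 and 78.8 CPM across naive replicates 1 to 5, against 413, 230.2, 302, 330.1 and 249.98 CPM across SCVS replicates 1 to 5. Naive replicate 5 was the only library under 230.2 CPM, and the groups overlap, with 300.2 ± 129 CPM in naive mice against 305 ± 72.2 CPM after SCVS (mean ± SD, 5 replicates each) and a log2 fold change of −0.0136 (SE 0.41), or −0.23 without naive replicates 1 and 5. That estimate sits at 0 within its error and took both signs when the scaling was changed or a replicate was left out. Among the 8 beta chains, compared per kilobase, Itgb1 made up 74.5, 96.8, 77.7, 87.8 and 68.3% across naive replicates 1 to 5, against 77.1, 77.4, 92.7, 80.3 and 79.8% across SCVS replicates 1 to 5. It was the leading beta chain in all 10 pools.

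Itgb5, which forms a vitronectin receptor with Itgav, came next among the beta chains over all replicates, at 10.2 CPM per kilobase. Its level was 80.7, 0.235, 62.8, 12.5 and 0.075 CPM across naive replicates 1 to 5, against 92.5, 30.6, 13.6, 33.1 and 18.1 CPM across SCVS replicates 1 to 5. It was below or at 3 counts in naive replicates 2 and 5 and highest in naive replicates 1 and 3 and SCVS replicate 1. In some naive pools another beta chain was second per kilobase. This was Itgb4 in naive replicate 2 (3.01%), Itgb6 in naive replicate 4 (4.40%) and Itgb8 in naive replicate 5 (30.8%). Itgb3, the beta chain of the platelet fibrinogen receptor and of the vitronectin receptor of many cells, stood at 8.44, 0.0783, 0.143, 0 and 0 CPM across naive replicates 1 to 5, against 14.5, 25.2, 0, 13.5 and 8.11 CPM across SCVS replicates 1 to 5. It was detected in 4 of 5 SCVS replicates and in naive replicate 1 alone among the naive ones, whose level lay within the SCVS range.

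Itgb8, whose pairing with Itgav releases active TGF-beta from its latent form, had the smallest p of the 36. Its gene lies at chr12:119162803-119238276 (GRCm38.p6). It was counted at 27.5, 0.0783, 1.14, 12.8 and 96.5 CPM across naive replicates 1 to 5, against 0, 0, 0, 0.529 and 0.10 CPM across SCVS replicates 1 to 5. In SCVS mice only replicate 4 exceeded 3 counts, with 7, while naive replicates 1, 3, 4 and 5 lay above every SCVS replicate and naive replicate 2, with 1 count, did not. The means were 27.6 ± 40.1 CPM in naive mice against 0.126 ± 0.229 CPM after SCVS (mean ± SD, 5 replicates each), with a log2 fold change of −7.68 (SE 2.35) and an adjusted p of 0.964 in edgeR against 0.00448 in DESeq2, and the adjusted p of all alternatives ran from 0.00448 to 1.00. Naive replicate 5, the library with little endothelial signal, held 69.6% of the CPM summed over the 10 replicates, and without it the log2 fold change was −6.28 with an adjusted p of 0.906, and without naive replicates 1 and 5 it was −5.05. It was −9.75 without SCVS replicate 4 and −5.17 with voom, so its size is loosely set, with the SCVS group near 0 counts. Itgb8 passed the count filter through naive replicates, the group where it was high, so whether it was tested depended on that group. With no filter beyond 1 count its log2 fold change was also −7.68.

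The library with most Itgb8, naive replicate 5, was rich in epithelial markers. The 6 epithelial markers (Epcam, Krt5, Krt14, Krt8, Krt18 and Cdh1, led by Krt18) summed to 555, 2.35, 2.36, 1139.5 and 2009.6 CPM across naive replicates 1 to 5, against 49.2, 1159, 338, 665 and 171 CPM across SCVS replicates 1 to 5. The sum was highest in naive replicate 5, where Krt18 stood at 809 CPM. In the naive group, replicates 1, 4 and 5 had the 3 highest epithelial sums and the 3 highest Itgb8 levels, while in the SCVS group replicate 2, with the second highest sum of all, had 0 counts of Itgb8. Krt14 was at 19.7, 1.33, 0, 0 and 14.1 CPM across naive replicates 1 to 5, against 0, 0, 0, 0 and 0 CPM across SCVS replicates 1 to 5, with an edgeR p of 0.0154 (adjusted 0.969), while the other 4 tested epithelial genes had a p of 0.423 or more, and the estimate was below 0 for 4 of the 5 tested and above 0 for 1. Krt14 passed the count filter through naive replicates only, the group where it was high. The part of the epithelial markers in the Itgb8 values was not tested.

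The beta chains of epithelia and leukocytes were low. Itgb4, the hemidesmosome chain that pairs with Itga6, was at 10.7, 18.7, 40.5, 8.33 and 1.65 CPM across naive replicates 1 to 5, against 0.071, 0.986, 12.5, 13.3 and 6.41 CPM across SCVS replicates 1 to 5. The 2 highest values were naive and the 2 lowest SCVS, with the other 6 mixed. Itgb6, which like Itgb8 pairs with Itgav and activates TGF-beta in epithelia, was seen in naive replicate 4 at 26.8 CPM and in SCVS replicate 2 at 9.78 CPM, beside 3 counts in SCVS replicate 5 and none in the other 7.

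Itgb2, the shared beta chain of the leukocyte integrins, was at 1.73, 0.0783, 12.2, 1.69 and 0 CPM across naive replicates 1 to 5, against 0, 0.164, 0, 0 and 16.3 CPM across SCVS replicates 1 to 5. A single library of each group, naive replicate 3 and SCVS replicate 5, exceeded 3 CPM. Itgb7, which pairs with Itga4 or Itgae on lymphocytes that home to the gut, was at 0.096, 0.0783, 0, 0.221 and 0 CPM across naive replicates 1 to 5, against 0, 3.94, 0, 15.7 and 6.51 CPM across SCVS replicates 1 to 5. Its gene lies at chr15:102215994-102233405 (GRCm38.p6). No naive replicate passed the floor, while SCVS replicates 2, 4 and 5 did, and SCVS replicates 1 and 3 had no read. The summed counts were 5 in naive and 321 in SCVS mice, a ratio of 66.5 once scaled to the totals (95% exact binomial interval for counting error alone 28.2 to 206), and the fit gave a log2 fold change of 5.88 (SE 2.35) with an adjusted p of 1.00. The interval takes each read as independent, which amplified reads are not, and leaves out the spread between pools. Without SCVS replicate 4 the ratio was 29.8, without naive replicate 4 it was 131, and the log2 fold change was 3.72 with voom and 5.61 without naive replicates 1 and 5. Itgb7 passed the count filter only through the group where it was high, so whether it was tested depended on that group. With no filter beyond 1 count its log2 fold change was also 5.88.

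The leukocyte alpha chains were each seen in few pools and none passed the count filter. Itgal, which with Itgb2 forms the lymphocyte receptor for Icam1, had 2.93 CPM (41 counts) in naive replicate 3 and 35.1 CPM (350 counts) in SCVS replicate 5, the library that also had the most Itgb2, and at most 3 counts elsewhere. Itgam, the alpha chain of the complement receptor of myeloid cells, was counted in naive replicate 1 alone, at 2.49 CPM (26 counts). Itgax, carried by dendritic cells, had 0.864 CPM (9 counts) in naive replicate 1, 2.95 CPM (40 counts) in naive replicate 4, and 1 count in naive replicate 2 and in SCVS replicate 1. Itgae, which binds E-cadherin and holds lymphocytes in epithelia, had 10.5 CPM (134 counts) in naive replicate 2, and 1 count in naive replicate 1 and in SCVS replicate 4. Itgad, a macrophage chain of the same family, had 0.96 CPM (10 counts) in naive replicate 1, 0.143 CPM (2 counts) in naive replicate 3, 0.295 CPM (4 counts) in naive replicate 4, 0.406 CPM (5 counts) in SCVS replicate 3 and 0.30 CPM (3 counts) in SCVS replicate 5. Each of these 5 chains thus passed 10 counts in at most 2 pools.

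The general leukocyte markers (Ptprc, Coro1a, Laptm5, Cd52, Cd53, Rac2 and Was, led by Cd53) summed to 26.1, 1.72, 23.3, 96.5 and 16.96 CPM across naive replicates 1 to 5, against 60.2, 1.31, 35.9, 396 and 211 CPM across SCVS replicates 1 to 5. SCVS replicates 4 and 5 were the highest and carried the most Itgb7, while SCVS replicate 2, the third with Itgb7, had the lowest sum of all. The neutrophil list (S100a8, S100a9, Ly6g, Mpo and Csf3r, led by Csf3r) reached 26.2 CPM in naive replicate 4 and 77.4 CPM in SCVS replicate 4 and at most 5.52 CPM elsewhere. The part of these cells in the Itgb2, Itgb7 and Itgal values was not tested.

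Among the alpha chains the collagen receptor chain Itga1 led, at 36.6 CPM per kilobase over all replicates, ahead of Itga6 at 19.5. Its level was 348, 259, 532, 369 and 12.6 CPM across naive replicates 1 to 5, against 493, 346, 281, 172 and 117 CPM across SCVS replicates 1 to 5. Naive replicate 5 was far below every other library, while the highest value, in naive replicate 3, and the next, in SCVS replicate 1, came from different groups. The means were 304 ± 190.4 CPM in naive mice against 282 ± 148 CPM after SCVS (mean ± SD, 5 replicates each), with a log2 fold change of −0.17 (SE 0.69), and −0.50 without naive replicates 1 and 5. Compared per kilobase, Itga1 held 68.98, 29.6, 59.2, 50.8 and 7.15% across naive replicates 1 to 5, against 56.9, 39.8, 51.2, 35.8 and 26.3% across SCVS replicates 1 to 5 of the alpha chain signal. It led in 8 of the 10 pools, and gave way to Itga3 in naive replicate 5 and to Itga6 in SCVS replicate 5.

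The other collagen-binding alpha chains were sparse. Itga2, a collagen receptor chain of platelets and epithelia, was at 0.192, 9.24, 0, 0.0737 and 0 CPM across naive replicates 1 to 5, against 0, 24.97, 4.95, 0 and 2.4 CPM across SCVS replicates 1 to 5. It was detected in 1 naive and 3 SCVS replicates, and 59.7% of its summed CPM lay in SCVS replicate 2. Itga10, a collagen receptor chain of cartilage, was counted in naive replicate 2 alone, at 6.73 CPM (86 counts). Itga11, a collagen receptor chain of fibroblasts, was at 0.096, 0.235, 0, 0 and 0 CPM across naive replicates 1 to 5, against 18.9, 0, 0, 8.46 and 0.901 CPM across SCVS replicates 1 to 5. Its gene lies at chr9:62677855-62783979 (GRCm38.p6). SCVS replicates 1, 4 and 5 passed the floor and no naive replicate did, but SCVS replicates 2 and 3 had no read. The summed counts were 4 in naive and 388 in SCVS mice, a ratio of 101 scaled to the totals (95% exact binomial interval for counting error alone 38.96 to 371), with a log2 fold change of 6.21 (SE 2.54) and an adjusted p of 1.00. As for Itgb7, the interval takes each read as independent and leaves out the spread between pools. Without SCVS replicate 1 the ratio was 40.6, without naive replicate 2 it was 322, and the log2 fold change was 3.01 with voom and 6.02 without naive replicates 1 and 5. As with Itgb7, the count filter was passed through the SCVS replicates only. The fibroblast sum was at its lowest, 18.5 CPM, in SCVS replicate 1, the library with most Itga11, and at its highest in SCVS replicate 5, which also had Itga11 above the floor. The part of fibroblasts in the Itga11 values was not tested.

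Of the laminin-binding alpha chains, Itga6, which pairs with Itgb1 or Itgb4, was present throughout. Its level was 89.5, 214, 312, 172 and 33.5 CPM across naive replicates 1 to 5, against 173, 287, 83.2, 193 and 202 CPM across SCVS replicates 1 to 5. Naive replicate 5 was lowest and naive replicate 3 highest, so the naive group enclosed every SCVS value. The means were 164 ± 109 CPM in naive mice against 188 ± 72.9 CPM after SCVS (mean ± SD, 5 replicates each), with a log2 fold change of 0.13 (SE 0.53), and the estimate turned to −0.36 without naive replicates 1 and 5. Itga3, which binds the laminins of basement membranes, was at 2.88, 78.6, 12.3, 47.7 and 66.02 CPM across naive replicates 1 to 5, against 1.77, 12.7, 3.08, 19.6 and 9.71 CPM across SCVS replicates 1 to 5. Naive replicates 2, 4 and 5 lay above every SCVS replicate and naive replicates 1 and 3 within their range, for means of 41.5 ± 33.02 CPM in naive mice against 9.36 ± 7.28 CPM after SCVS (mean ± SD, 5 replicates each), and Itga3 was among the genes at an unadjusted p under 0.05 in DESeq2 but not in edgeR. Itga7, the laminin receptor chain of muscle, was at 23.2, 0.861, 0, 0 and 0 CPM across naive replicates 1 to 5, against 9.08, 2.79, 0.162, 0 and 0.10 CPM across SCVS replicates 1 to 5. Naive replicate 1 and SCVS replicate 1 were its main sources.

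The chains that recognise the RGD motif of fibronectin and vitronectin were intermediate. Itgav, the common alpha partner of Itgb3, Itgb5, Itgb6 and Itgb8, was at 15.6, 61.3, 26.4, 64.5 and 0.075 CPM across naive replicates 1 to 5, against 20.6, 2.14, 122, 40.1 and 0 CPM across SCVS replicates 1 to 5. SCVS replicate 3 was highest, and naive replicate 5 and SCVS replicate 5 had 1 and 0 counts, so each group ran from near 0 to its top. The fit gave a log2 fold change of 0.18 (SE 1.57), with the opposite sign, −0.40, without naive replicates 1 and 5. Itga5, the classic fibronectin receptor chain of endothelium, was at 5.66, 62.3, 22.4, 36.4 and 0.075 CPM across naive replicates 1 to 5, against 36.5, 48.7, 13.96, 27.8 and 23.4 CPM across SCVS replicates 1 to 5. All 5 SCVS replicates and naive replicates 2, 3 and 4 had it, naive replicate 1 had little, and naive replicate 5 had 1 count. Itga8, which binds nephronectin, was counted in SCVS replicate 5 alone, at 3.61 CPM (36 counts).

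Itga2b, the alpha chain that platelets and megakaryocytes pair with Itgb3 to hold fibrinogen, was at 0.096, 50.04, 5.44, 4.13 and 0 CPM across naive replicates 1 to 5, against 38.8, 70.5, 2.6, 9.22 and 12.8 CPM across SCVS replicates 1 to 5. It was detected in all 5 SCVS replicates and in naive replicates 2, 3 and 4, and SCVS replicate 2 and naive replicate 2 were the first and second highest, so the groups overlap. Itga4, which binds Vcam1 and fibronectin, had 18.5 CPM (246 counts) in naive replicate 5, 5.44 CPM (67 counts) in SCVS replicate 3 and 1.8 CPM (18 counts) in SCVS replicate 5, and no read in the other 7. Itga9, the valve integrin of lymphatics, was at 0, 32.03, 0, 11.1 and 29.5 CPM across naive replicates 1 to 5, against 30.2, 5.26, 53.6, 2.64 and 18.5 CPM across SCVS replicates 1 to 5. All 5 SCVS replicates had it, naive replicates 1 and 3 had no read, and naive replicates 2, 4 and 5 were enclosed by the SCVS values. Naive replicate 1, with 0 counts, was the library without Prox1 reads, while in naive replicate 3 Prox1 stood at 52.02 CPM.

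The 3 kindlins differed widely in level. Fermt2, the kindlin of most adherent cells, was second only to Itgb1 per kilobase among the 36, at 57.4 CPM per kilobase over all replicates, and its level was 202, 274, 271, 175 and 74.3 CPM across naive replicates 1 to 5, against 118, 306, 416, 172 and 144 CPM across SCVS replicates 1 to 5. SCVS replicates 3 and 2 were highest and naive replicate 5 lowest, with 199 ± 82.1 CPM in naive mice against 231 ± 126 CPM after SCVS (mean ± SD, 5 replicates each) and a log2 fold change of 0.17 (SE 0.45), which turned to −0.0768 without naive replicates 1 and 5. Fermt1, the kindlin of epithelia, had 7.8 CPM (95 counts) in SCVS replicate 2 and 0.487 CPM (6 counts) in SCVS replicate 3 and no read elsewhere.

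Fermt3, the kindlin of blood cells and platelets, was at 5.66, 1.41, 0.215, 0 and 0 CPM across naive replicates 1 to 5, against 58.04, 152, 0, 55.99 and 48.6 CPM across SCVS replicates 1 to 5. Its gene lies at chr19:6998958-7019469 (GRCm38.p6). SCVS replicates 1, 2, 4 and 5 lay above every naive replicate, whereas SCVS replicate 3, with no read, lay at the bottom beside naive replicates 4 and 5. The means were 1.46 ± 2.42 CPM in naive mice against 62.9 ± 55.1 CPM after SCVS (mean ± SD, 5 replicates each), with a log2 fold change of 5.29 (SE 2.03) and an adjusted p of 1.00 in edgeR and of 0.177 in DESeq2, within a range of 0.177 to 1.00 over the alternatives. The estimate was 6.77 without naive replicates 1 and 5, and between 4.75 and 7.19 with any 1 replicate left out. In the naive group only replicates 1 and 2, with 59 and 18 counts, exceeded the 5 counts of the filter. Whether Fermt3 was tested thus depended on the SCVS group, where it was high. With no filter beyond 1 count its log2 fold change was 5.31. With SCVS replicate 3 left out, Fermt3 was the 1 gene of the 36 whose groups no longer overlapped with SCVS higher, as did 0.918% of the genes tested. Compared per kilobase, Fermt3 made up 3.9, 0.74, 0.114, 0 and 0% across naive replicates 1 to 5, against 41.5, 41.5, 0, 32.02 and 32.9% across SCVS replicates 1 to 5 of the kindlin signal. Fermt2 supplied most of the signal in all 10 pools, and Fermt3 a large minor share in 4 SCVS pools.

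Platelet and blood markers were read beside it. The 5 platelet and megakaryocyte markers (Pf4, Ppbp, Gp9, Gp1bb and Treml1, led by Ppbp) summed to 0.576, 277, 107, 144 and 0.075 CPM across naive replicates 1 to 5, against 493, 247, 278, 164 and 82.5 CPM across SCVS replicates 1 to 5. SCVS replicate 3, without Fermt3, had the second highest sum of the SCVS group, and naive replicates 2, 3 and 4, with at most 1.41 CPM of Fermt3, had sums between those of SCVS replicates. Single markers differed from the sum: Treml1 was highest in SCVS replicate 2, at 34.6 CPM, and Pf4 was at 0.096, 9.87, 13.3, 61.2 and 0 CPM across naive replicates 1 to 5, against 108, 44.9, 108, 115 and 27.2 CPM across SCVS replicates 1 to 5. SCVS replicate 2, with the most Fermt3, had the lowest general leukocyte sum of the 10 replicates, 1.31 CPM, and no read of Ptprc, whereas SCVS replicates 1, 4 and 5, the other 3 with much Fermt3, were the 3 replicates with more than 3 counts of Ptprc. Ptprc had an adjusted p of 0.971 in edgeR and 0.0801 in DESeq2, higher in SCVS mice (0.0801 to 1.00 over the alternatives). It passed the count filter through SCVS replicates only, the group where it was high. Of the chains of the platelet fibrinogen receptor, Itgb3 had no read in SCVS replicate 3 and was highest in SCVS replicate 2, at 25.2 CPM. Itga2b was also highest in SCVS replicate 2, at 70.5 CPM, but stood at 50.04 CPM in naive replicate 2 and 2.6 CPM in SCVS replicate 3. The part of platelets and other blood cells in the Fermt3 values was not tested. Trpt1, on the opposite strand at the same locus, was at 15.6, 20.6, 0, 7.66 and 8.7 CPM across naive replicates 1 to 5, against 9.08, 0, 0, 10.96 and 10.6 CPM across SCVS replicates 1 to 5. Its part in the Fermt3 values was not tested.

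**Figure D3:**
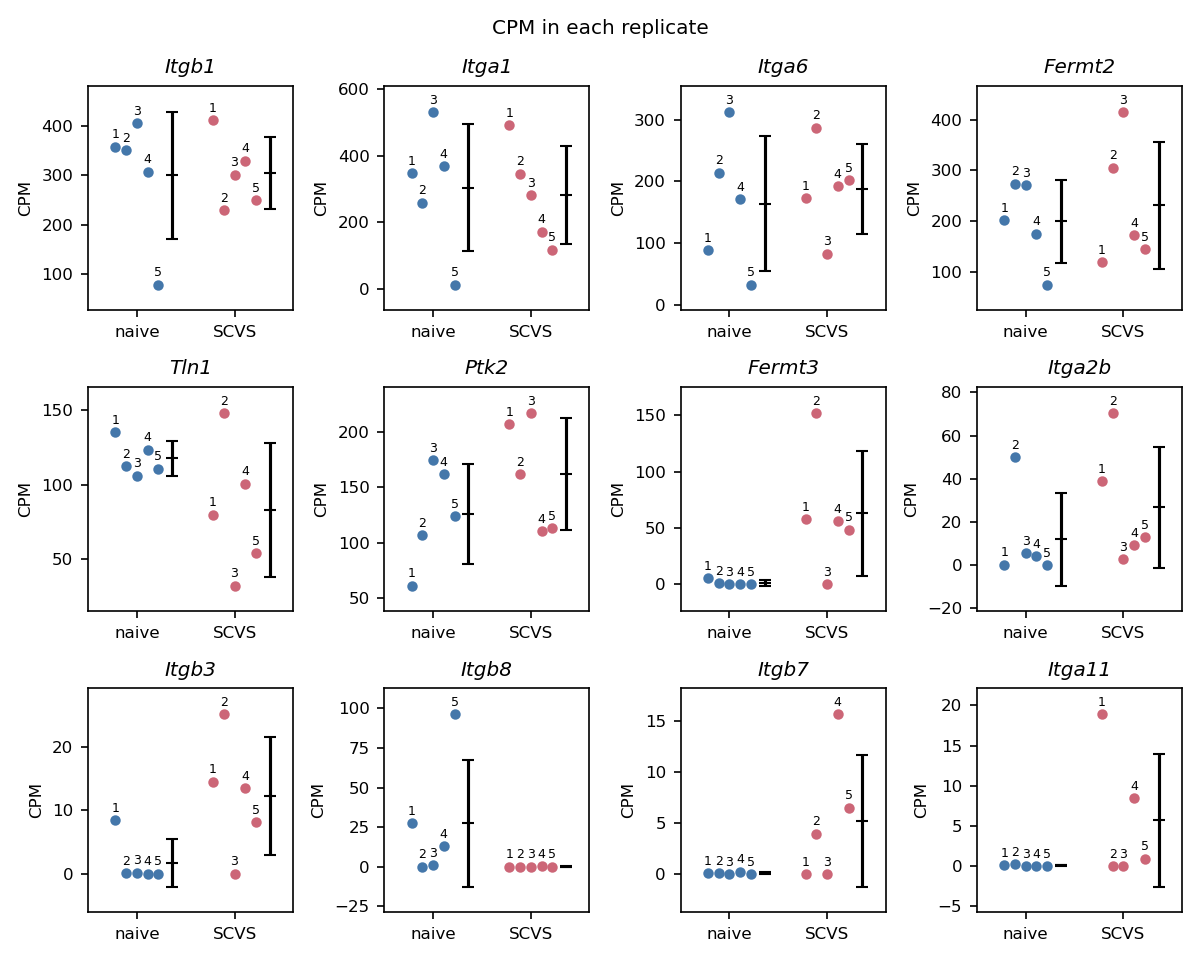
CPM of 12 of the genes in each replicate (points, numbered by replicate, naive in blue and SCVS in red), with the mean and SD of each group (black bars, n = 5). The groups overlap in every panel, Fermt3 is high in SCVS replicates 1, 2, 4 and 5, and Itgb8 is highest in naive replicate 5.

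Talins, which start integrin activation from inside, and the focal adhesion genes were mostly present in both groups. Tln1 was at 135, 112, 106, 123 and 111 CPM across naive replicates 1 to 5, against 79.7, 148, 32.3, 101 and 54.1 CPM across SCVS replicates 1 to 5. The naive replicates were tightly grouped, and SCVS replicates 1, 3, 4 and 5 lay below all of them while SCVS replicate 2 lay above all of them. The means were 118 ± 11.7 CPM in naive mice against 82.98 ± 44.6 CPM after SCVS (mean ± SD, 5 replicates each), with a log2 fold change of −0.58 (SE 0.40), or −0.50 without naive replicates 1 and 5, and without SCVS replicate 2 the groups did not overlap, as for 0.52% of the genes tested with SCVS lower. Creb3, which overlaps Tln1 on the opposite strand, was at 6.52, 38.8, 102, 70.9 and 62.3 CPM across naive replicates 1 to 5, against 199, 77.7, 72.6, 110.3 and 214 CPM across SCVS replicates 1 to 5. How reads from any sequence shared by the 2 genes were assigned is not known, and the part of Creb3 in the Tln1 values was not tested. Tln2, the talin of muscle and brain, was at 51.2, 0, 31.3, 0.884 and 9.15 CPM across naive replicates 1 to 5, against 0.213, 12.4, 21.6, 5.52 and 28.04 CPM across SCVS replicates 1 to 5. It was near 0 in naive replicate 2 and SCVS replicate 1 and highest in naive replicate 1, and the groups overlap.

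Ptk2, focal adhesion kinase, was at 61.6, 107, 174, 162 and 124 CPM across naive replicates 1 to 5, against 207, 162, 217, 110.2 and 113 CPM across SCVS replicates 1 to 5. SCVS replicates 1 and 3 were above every naive replicate and naive replicates 1 and 2 below every SCVS replicate, with 126 ± 45.1 CPM in naive mice against 162 ± 50.2 CPM after SCVS (mean ± SD, 5 replicates each) and a log2 fold change of 0.32 (SE 0.37), or 0.11 without naive replicates 1 and 5. Ilk, integrin-linked kinase, was at 15.3, 19.5, 29.9, 21.2 and 14.3 CPM across naive replicates 1 to 5, against 20.9, 20.7, 17.4, 38.3 and 25.9 CPM across SCVS replicates 1 to 5. It was detected in every pool, naive replicate 5 included, and the groups overlap. Zyx, the zyxin of mature adhesions, was at 43.5, 54.9, 100.3, 59.1 and 0.15 CPM across naive replicates 1 to 5, against 80.7, 187, 1.78, 138 and 42.2 CPM across SCVS replicates 1 to 5. SCVS replicates 2 and 4 were highest, naive replicate 5 and SCVS replicate 3 were near 0, and the fit gave a log2 fold change of 0.71 (SE 1.15), or 0.26 without naive replicates 1 and 5.

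Vcl, vinculin, was at 31.2, 3.6, 32.4, 46.3 and 0 CPM across naive replicates 1 to 5, against 45.6, 24.6, 17.5, 3.63 and 48.97 CPM across SCVS replicates 1 to 5. It had no read in naive replicate 5 and was low in naive replicate 2 and SCVS replicate 4. Pxn, the adaptor paxillin, was at 39.5, 21.8, 9.52, 58.6 and 4.28 CPM across naive replicates 1 to 5, against 75.1, 18.5, 3.00, 27.6 and 7.71 CPM across SCVS replicates 1 to 5. SCVS replicates 1 and 3 were its highest and lowest, so the SCVS group enclosed every naive value. With naive replicate 5 set aside, each of the 7 talin and focal adhesion genes was still present in pools of both groups with overlapping levels.

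Of 58 further genes of the adhesion machinery (partners of kindlin and integrin-linked kinase such as Parva and Lims1, the kinases Src and Fyn, actin linkers and tetraspanins), 57 were tested. None passed in edgeR, DESeq2 or voom at an adjusted p of 0.1, and 0, 0 and 3 had an unadjusted p under 0.05 in these tools, against 3.1, 4.72 and 5.22% of all genes. The estimate was above 0 for 32 and below 0 for 25, with a median log2 fold change of 0.0268. Cd81, a tetraspanin that sits beside integrins in the membrane, was the most abundant, at 2416, 2166, 2135, 2391 and 1726 CPM across naive replicates 1 to 5, against 3096, 3120.4, 2007, 2600.4 and 2068 CPM across SCVS replicates 1 to 5. Its levels kept within a narrow range that included naive replicate 5, and the groups overlap. The summed level of the 58 was 12296, 13266, 12638, 10572 and 6042 CPM across naive replicates 1 to 5, against 13208, 13681, 11048, 13039 and 9788 CPM across SCVS replicates 1 to 5. Naive replicate 5 was again the lowest.

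Of 22 integrin ligands (among them fibronectin, vitronectin, laminin and collagen chains, Vcam1 and Icam1), 21 were tested and none passed in edgeR, DESeq2 or voom, with 0, 2 and 0 at an unadjusted p under 0.05, where all genes gave 3.1, 4.72 and 5.22%. The estimate was above 0 for 9 and below 0 for 12, with a median log2 fold change of −0.20. Col4a1, a chain of basement membrane collagen and a ligand of Itga1, was the most abundant, at 468, 197, 350.2, 487 and 23.3 CPM across naive replicates 1 to 5, against 324, 471, 117, 339.9 and 148 CPM across SCVS replicates 1 to 5. It was lowest in naive replicate 5, and the groups overlap. Madcam1, the ligand of the Itga4 and Itgb7 pair, had no read in any replicate. The ligands summed to 2478, 3319, 2423, 2290.1 and 202 CPM across naive replicates 1 to 5, against 1700.2, 1775, 1286, 1599.8 and 964 CPM across SCVS replicates 1 to 5. Naive replicates 1 to 4 were all above the highest SCVS replicate, and naive replicate 5 was below the lowest, a pattern noticed after seeing the data and not tested. The fibroblast sum was likewise higher in naive replicates 1 to 4 than in SCVS replicates 1 to 4 and low in naive replicate 5, but highest in SCVS replicate 5, and Col1a1 is in both lists. The part of fibroblasts in the ligand sums was not tested.

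Limits include the 5 pools a group and the uneven marker levels of the pools, whose cause was not tested. Another is an edgeR biological coefficient of variation of 1.59, the SD between replicates relative to a gene's mean. At this spread the tools differ, with 0% of genes under an adjusted p of 0.1 in edgeR and 0.814% in DESeq2, so neither the lack of calls in edgeR nor the DESeq2 values of Itgb8, Acta2 and Ptprc are firm. A p above the threshold does not show that a gene was alike in the groups.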

How the data were processed

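The authors used a kit for whole-transcriptome amplification of small inputs and deposited raw counts per gene for each of the 10 replicates, with no normalization. Their methods name the mm9 genome, while the submitters' processing notes name GRCm38 and list cutadapt 1.9.1, HISAT2 2.0.1, HTSeq 0.6.1 and DESeq2. Of the 55401 deposited identifiers, 22812 are not in the mm9 annotation used here (GENCODE M1), so coordinates are those of RefSeq on GRCm38.p6, in which all 36 symbols matched. Exon lengths per kilobase came from GENCODE M1, in which 21 of the 36 genes overlap another gene, 15 of them on the opposite strand. These overlaps are of whole gene spans, introns included. Whether counting used strand is not given in the sources used here, so how reads from sequence shared by such a pair were assigned is not known. Which cohort or sequencing run a replicate came from is likewise not given.

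Every gene that exceeded 5 counts in 3 or more of the 10 replicates was tested with edgeR 4.0.16 in R 4.3.3 (quasi-likelihood test, TMM factors, Benjamini-Hochberg adjustment over all 14815 genes tested, threshold 0.1). The SE is the log2 fold change over the square root of F. Alternatives were DESeq2 1.42.0, limma 3.58.1 with voom and quality weights, RLE factors, library totals, no filter beyond 1 count, filterByExpr, a replicate block, leaving out each replicate, a floor of 10 counts, CPM over effective library sizes, and, added after seeing the data, leaving out naive replicates 1 and 5 and, for the count ratios, each replicate in turn. Other values used Python 3.11.15 with SciPy 1.17.1, and the exact permutation tests cannot give a p under 0.00794.

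All 36 genes are named. Fold changes are given for those with an unadjusted p under 0.05, any whose groups do not overlap, and the 8 tested genes with the highest mean CPM. From the adhesion and ligand lists, genes past either criterion and the most abundant gene are named, and from each of 10 marker lists the most abundant gene. Results that need 2 further marker lists of the plan are not reported here. The 36 genes and the lists were chosen with earlier results of these data known. A few marker genes and Itga3 in DESeq2 were named after their values were seen.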

Additional observations from a re-analysis of the deposited data

Results flagged for a closer look

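In 12 of the 54 pairings of a tested gene with a group, 1 replicate lay far from the other 4, its gap to the nearest making up more than 0.71 of the group's range. Chance alone gives about 1 in 20 such groups where values are normally distributed, which these skewed counts are not, and 22.2% of such pairings over all genes tested had one, as did 22.2% here. In the naive group these were Itga2 at 9.24 CPM and Itga2b at 50.0 CPM in replicate 2, Itga7 at 23.2 CPM, Itgb3 at 8.44 CPM and Fermt3 at 5.66 CPM in replicate 1, Itga4 at 18.5 CPM and Itgb8 at 96.5 CPM in replicate 5, and Itgb2 at 12.2 CPM in replicate 3. In the SCVS group they were Itga2 at 25.0 CPM in replicate 2, Itgb5 at 92.5 CPM in replicate 1, Itgb8 at 0.529 CPM in replicate 4 and Itgb2 at 16.3 CPM in replicate 5. All 12 were high values. Without naive replicate 5 the log2 fold change of Itgb8 was −6.28 in place of −7.68, and without naive replicate 1 that of Fermt3 was 7.19 in place of 5.29.

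Of 32 pairings of a summed or total value with a group, 6 had such a replicate, all high and all sums of marker lists. Naive replicate 4 had 96.5 CPM of general leukocyte markers and 26.2 CPM of neutrophil markers. SCVS replicate 4 had 2528 CPM of macrophage and 77.4 CPM of neutrophil markers. SCVS replicate 5 had 4863 CPM of erythroid and 1500 CPM of fibroblast markers.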

How the results depend on the processing

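The count of 0 genes of the table under an adjusted p of 0.1 in edgeR became 114 in DESeq2 and 3 in voom, and that of 0 among the 36 became 1 (Itgb8) in DESeq2. Both counts were 0 in every other alternative run, as was that of the other adhesion genes and ligands in all of them. Of the 36, 27 were tested in the main fit, and 4 of these had an unadjusted edgeR p under 0.05, against 3.1% of all genes tested. The count was 1 with filterByExpr, which drops Itga11, Itgb7 and Itgb8, 6 with no filter beyond 1 count and 1 with the replicate block. It was 3 without naive replicates 1 and 5, and 2 to 5 with a replicate left out, lowest without SCVS replicate 2. The share of all genes at that p under these other settings was not worked out, so these counts cannot be set against it. With no filter beyond 1 count, Itga11 and Itgb7 had an edgeR p of 0.0508 and 0.0533, so they were not among the 6. The counts of genes whose groups do not overlap ran from 0 to 1 in each direction with a replicate left out (Fermt3 higher without SCVS replicate 3, as 0.918% of genes tested, Tln1 lower without SCVS replicate 2, as 0.52%, and Itgb8 lower without naive replicate 2, as 0.472%).

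Of the alternative values of the 12 log2 fold changes, 183 kept their sign and side of the threshold, 1 (Itgb8 in DESeq2) passed it and 23 changed sign, all of these for Itga1, Itga6, Itgav, Itgb1 and Fermt2. With voom the value was −2.42 for Itgav and −0.0108 for Fermt2, and with library totals 0.0265 for Itgb1. Without naive replicates 1 and 5 it was −0.36 for Itga6, −0.40 for Itgav and −0.0768 for Fermt2. With any 1 replicate left out, Itga1 ran from −0.48 to 0.14 (above 0 without naive replicate 3 or SCVS replicate 5), Itga6 from −0.13 to 0.52 (below 0 without naive replicate 1 or 5 or SCVS replicate 2), Itgav from −1.09 to 0.53 (below 0 without naive replicate 5 or SCVS replicate 3), Itgb1 from −0.26 to 0.13 (above 0 without naive replicate 1, 2 or 3 or SCVS replicate 2 or 5) and Fermt2 from −0.19 to 0.35 (below 0 without naive replicate 5 or SCVS replicate 3). The cause was not tested. With any 1 replicate left out, Zyx ran from 0.34 to 1.11, Ptk2 from 0.16 to 0.48 and Tln1 from −0.83 to −0.38. Itga11 and Itgb7 have no value with filterByExpr or with some SCVS replicates left out, as they then fail the filter. A floor of 10 counts moved the mean number of the 36 detected from 20.4 to 19.8 in naive and from 23.2 to 22.4 in SCVS replicates.

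Replicates that carry the same number came from different animals. The correlation of their deviations from the group means lay between −0.0090 and 0.133, and naive replicates 1, 2, 4 and 5, but not 3, correlated best with their own number. With the replicate block, 1 of the 36 (Itgb8) had an unadjusted p under 0.05, and the share of all genes at that p was not worked out. No gene passed an adjusted p of 0.1. The log2 fold change was 0.26 for Itga1, −0.74 for Itgav and 0.12 for Itgb1, and remained above 0 for Fermt3 (6.39), Itga11 (5.56) and Itgb7 (4.76).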
